A study of Homo sapiens with 10 samples.

Results

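Integrins and laminins are the cell surface receptors and the basement membrane ligands through which epithelial cells hold on to their matrix. The H3K27ac regions assigned to their genes were taken from the annotated count table of the series by gene symbol. Of the integrin alpha chains (ITGA), those with a number alone, ITGAV, ITGAL and ITGAE were taken. Other alpha chain symbols, such as ITGAM, ITGAX, ITGAD and ITGA2B, were not looked up. Every numbered integrin beta chain (ITGB) and laminin alpha, beta or gamma chain (LAMA, LAMB, LAMC) was also taken. This gave 245 regions of equal width, of 67387 annotated and 169637 counted regions. Of these, 157 belonged to 15 integrin genes and 88 to 11 laminin genes. No annotated region carried the symbol ITGA1, ITGA4, ITGA7, ITGA8, ITGA9, ITGA10, ITGAL or LAMC3.

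The data came from NCI-H1975, an EGFR-mutant lung adenocarcinoma cell line. DMSO-treated cells and both drug-treated groups, with 3 biological replicates in each, were profiled by H3K27ac ChIP-seq, with 1 pooled input. The DMSO group grew without drug for 21 days and then received DMSO for 3 days. The osimertinib DTP group (drug-tolerant persister cells) was treated with osimertinib, an inhibitor of mutant EGFR, at 500 nM for 24 days. The osimertinib DTP + AZD5153 group received 500 nM osimertinib for 21 days and then AZD5153, a second small-molecule inhibitor, at 150 nM for 3 days. The labels describe a sequential combination without saying whether osimertinib was still present in the last 3 days. All groups are the same cell line, so the replicates stand for separate treatments of 1 line, not for different tumours. All 6 epithelial marker genes had promoter regions, and the highest promoter region of each stood, by mean level among all annotated promoter regions, between percentile 29.5 (KRT18) and percentile 99.6 (KRT8), with CDH1 at 44.1 and EPCAM at 90.2. Of the leukocyte genes, CD14 and CD79A had a promoter region, at percentiles 6.01 and 0.0732, while PTPRC and CD3E had no annotated region. The endothelial gene CDH5 (47.9) and the fibroblast genes COL1A1 (47.5) and PDGFRA (50.6) stood above KRT18 and CDH1, while the fibroblast gene COL1A2 (14.7) stood below both. The endothelial genes PECAM1, VWF and KDR had no promoter region, and the fibroblast genes COL3A1 and DCN had no annotated region.

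H3K27ac, acetylation of lysine 27 on histone H3, marks active promoters and enhancers. An integrin is a pair of 1 alpha and 1 beta chain that spans the membrane, binds matrix outside and couples to actin or keratin filaments inside. ITGA6 with ITGB4 holds epithelial cells to laminin in hemidesmosomes, while ITGAV pairs with several beta chains and, with ITGB6 or ITGB8, activates latent TGF-beta. A laminin is a trimer of 1 alpha, 1 beta and 1 gamma chain, and LAMA3 and LAMB3 are chains of the main laminin under epithelia.

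The promoters of 4 genes are shown as context, and a link between their sequence and the mark was not tested. They are those of ITGB8, where the mark was higher in both treated groups, and ITGB6, where it was lower around the gene. The others are LAMC1, which had calls at distal but not at promoter regions, and LAMA3, which holds matches to the AP-1 motif. Each line gives the 250 bases before the RefSeq start (GRCh38.p14), 5′ to 3′ along the gene. Capitals mark CG dinucleotides in the first 3 sequences and AP-1 matches (TGANTCA, either strand) in the last. The windows lie at chr7:20330650-20330899 on the plus strand (ITGB8), chr2:160200273-160200522 on the minus strand (ITGB6), chr1:183023170-183023419 on the plus strand (LAMC1) and chr18:23872770-23873019 on the plus strand (LAMA3).
ITGB8: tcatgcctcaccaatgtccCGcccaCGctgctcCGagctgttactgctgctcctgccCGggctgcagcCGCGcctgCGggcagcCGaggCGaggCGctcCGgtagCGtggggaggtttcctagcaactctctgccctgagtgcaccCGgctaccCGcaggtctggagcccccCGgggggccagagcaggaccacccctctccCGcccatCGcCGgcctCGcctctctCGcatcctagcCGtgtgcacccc
ITGB6: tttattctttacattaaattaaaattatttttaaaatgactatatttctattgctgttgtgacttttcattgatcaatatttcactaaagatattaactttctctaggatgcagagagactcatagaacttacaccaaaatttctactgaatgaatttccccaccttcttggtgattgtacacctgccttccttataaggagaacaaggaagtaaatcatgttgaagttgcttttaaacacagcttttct
LAMC1: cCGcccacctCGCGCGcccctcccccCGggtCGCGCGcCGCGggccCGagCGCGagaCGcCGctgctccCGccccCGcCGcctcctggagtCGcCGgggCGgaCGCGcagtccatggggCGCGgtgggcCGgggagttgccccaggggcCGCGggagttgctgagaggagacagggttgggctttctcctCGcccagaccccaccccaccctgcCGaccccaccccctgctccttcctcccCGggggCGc
LAMA3: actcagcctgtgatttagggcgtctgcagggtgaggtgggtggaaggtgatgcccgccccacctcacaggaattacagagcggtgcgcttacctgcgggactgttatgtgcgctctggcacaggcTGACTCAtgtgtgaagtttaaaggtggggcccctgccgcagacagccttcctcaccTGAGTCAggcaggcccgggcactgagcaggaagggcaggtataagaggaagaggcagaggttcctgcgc

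The printed ITGB8 sequence held 21 CG dinucleotides and the LAMC1 sequence 32, whereas the ITGB6 sequence held 0. The 300-base ITGB6 window was 31.7% G or C. RefSeq windows (250 bases before to 50 after a start) were at hand for 20 of the 26 genes, 27 windows in all. The AP-1 letters TGANTCA were in windows of 3 of these genes (LAMA3, LAMB3 and ITGA5) and in 7.71% of all 35116 windows. The TEAD letters GGAATG, searched on both strands, were in windows of 3 genes (LAMA2, ITGB1 and ITGA5) and in 14% of all windows. GGAATG ends and TGANTCA begins with the letters TG, so matches could overlap, and each motif was counted on its own.

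The table assigns each region to the gene with the nearest annotated transcript start, so a symbol marks position and not a shown target. Promoter here means within 1 kb of such a start (65 regions), flank means over 1 and up to 3 kb (41 regions), and distal means every other region (139 regions, of which 105 were labelled intronic). Among promoter regions of genes with a RefSeq window, 31 of 51 had their centre within about 1 kb (plus the reach of a region) of a RefSeq start and 20 lay at other annotated transcript starts, such as an internal ITGB5 start described below. Levels are given as CPM (counts scaled by the TMM-adjusted library size) for a region, or summed over a gene's regions of 1 class. Every member region passed the filter on low counts. Input counts at the members lay between 2 and 35, with a median of 14.

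Library depth in counted regions ran from 6263443 to 10463351. Replicate 3 of osimertinib DTP + AZD5153 was the shallowest and stood apart: its Spearman correlation with its group was 0.445 and 0.367, against 0.805 to 0.893 for all other pairs within a group. It placed 61.0% of its member counts in promoters and osimertinib DTP replicate 2 placed 56.9%, against 29.9 to 39.9% in the other 7 libraries. Over all annotated regions these 2 libraries were also highest, at 66.7 and 59.8%, against 40.3 to 45.9%. Results are therefore given with all 9 libraries, and the totals and a part of the named results also with that replicate left out. The part of the promoter-rich libraries in each result was not tested beyond the fits that left them out.

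In osimertinib DTP cells the mark at integrin and laminin genes was mostly lower, and most of the lower calls were at distal regions. With all 9 libraries, 48 of 245 member regions passed an adjusted p of 0.05 against DMSO (edgeR quasi-likelihood test, Benjamini-Hochberg over 157919 regions), 9 higher and 39 lower. Of all tested regions, 5.58% were called higher and 5.13% lower, and of annotated regions 6.98% and 7.22%. Of the 139 distal member regions, 33 were called lower and 6 higher, where 10.8% and 9.79% of all annotated distal regions were. The median log2 fold change was -1.04 over distal members and -0.06 over all annotated distal regions. In 86 of the 139 distal members all osimertinib DTP libraries lay below all DMSO libraries, against 31.0% of annotated distal regions.

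Of the 65 promoters, 3 were called higher and 2 lower, with a median log2 fold change of 0.42 against 0.35 over all annotated promoters (2.78% called higher, 1.85% lower). All osimertinib DTP libraries lay below all DMSO libraries in 14 promoters and above them in 13, against 9.33% and 13.5% of annotated promoters. No laminin promoter region, of 19, was called with all libraries, and 7 were without replicate 3 of osimertinib DTP + AZD5153. Without osimertinib DTP replicate 2 the promoter median became -0.17, while the distal median was -0.89, so the sign of the promoter median rested on that library. Of the 41 flank regions, 4 were called lower and 0 higher, against 7.35% and 6.90% of annotated flank regions.

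The number called depended on single libraries. Without replicate 3 of osimertinib DTP + AZD5153, a library of neither group compared here, 161758 regions passed the filter and 113 member regions were called, 29 higher and 84 lower, against 14.2% and 12.7% of all regions. It was 19, 3 and 8 without DMSO replicate 1, 2 or 3 (5.03, 0.701 and 1.94% of all regions tested in those fits, beside 10.7% with all libraries), and 15, 5 and 9 without osimertinib DTP replicate 1, 2 or 3 (5.19, 3.01 and 2.75%). In those 7 fits the median over distal members stayed between -1.05 and -0.89. By gene, leaving out that AZD5153 replicate took the lower calls of ITGB6 from 10 to 18, of LAMB3 from 3 to 9, of ITGB1 from 1 to 7, of LAMC1 from 2 to 5, of ITGA11 from 0 to 3 and of LAMA2 from 0 to 2. It took the higher calls of ITGB8 from 3 to 6, of ITGB2 and LAMA5 from 1 to 4 and of LAMB4 from 0 to 3, and the calls of LAMB1 from 1 higher and 1 lower to 4 and 4. Only 3 regions were called in each of the 9 fits that left out 1 library: both LAMC1 upstream regions and 1 LAMA3 intronic region described below.

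In osimertinib DTP + AZD5153 cells, 74 member regions differed from DMSO, 25 higher and 49 lower (9.05% and 9.01% of all regions, 10.7% and 11.1% of annotated regions). Of the distal members, 37 were called lower and 13 higher, where 16.1% and 14.3% of annotated distal regions were. Of the promoters, 8 were higher and 3 lower, against 5.33% and 3.18% of annotated promoters, and of the 41 flank regions 4 were higher and 9 lower, against 10.6% and 12.7% of annotated flank regions. The median log2 fold change was -0.88 over distal members (-0.71 without replicate 3) and 0.55 over promoters (0.05 without replicate 3), beside 0.03 and 0.42 over annotated distal and promoter regions. Leaving out replicate 3 of that group, 118 regions were called, 41 higher and 77 lower, against 18.4% and 17.3% of all regions. It was 42, 25 and 30 without DMSO replicate 1, 2 or 3 (10.6, 5.18 and 6.14% of all regions tested in those fits, beside 18.1% with all libraries) and 48 without osimertinib DTP + AZD5153 replicate 1 (10.2%). TMM left the median of all regions at a log2 fold change of 0.23, library size alone at -0.02 and a loess offset at 0.35, and with library size alone the 74 calls were 16 higher and 58 lower.

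**Figure D1:**
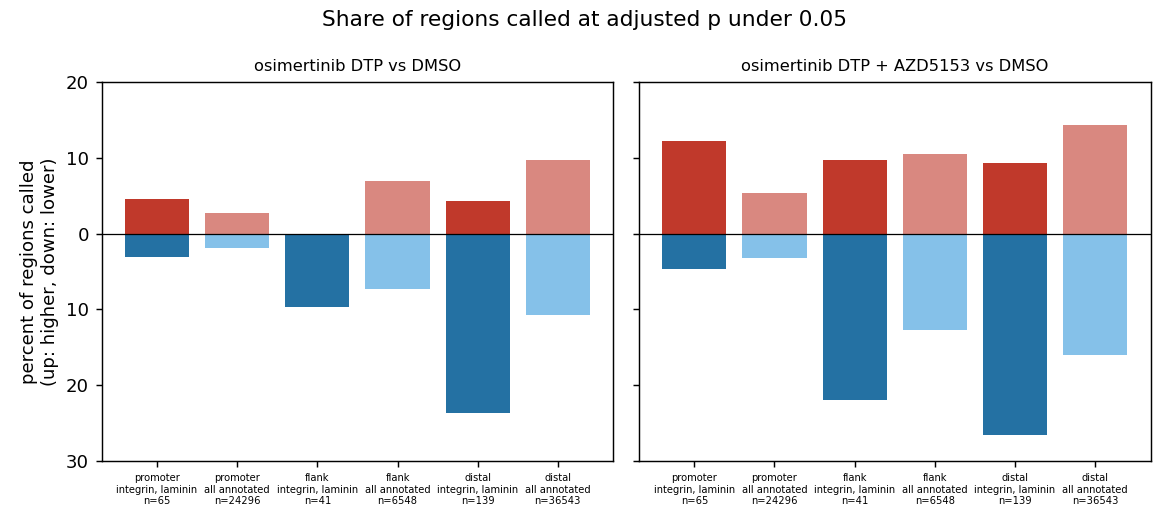
Percent of regions called higher (above 0) and lower (below 0) than DMSO, for integrin and laminin regions (dark bars) and all annotated regions (light bars), by class; the number of regions stands under each bar. The largest gap is in distal regions called lower, 33 of 139 members in osimertinib DTP cells and 37 of 139 after AZD5153, beside 10.8 and 16.1% of annotated distal regions.

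Between the treated groups nothing was called. Of 245 member regions, 0 passed the adjusted p for osimertinib DTP + AZD5153 against osimertinib DTP (edgeR, 0.0% of all regions called) and 15 had an unadjusted p under 0.05. DESeq2 called 0 members. Without replicate 3, 1 member was called, a distal ITGB5 region that was higher after AZD5153, and 0.123% of all regions were. Both comparisons with DMSO share the same 3 control libraries, so their values are set side by side here and not counted as 2 pieces of evidence.

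To count each gene once, the counts of a gene's regions were summed by class and tested the same way over 24117 sums. Of 61 member sums, 11 were called in osimertinib DTP cells, 2 higher and 9 lower (5.56% and 5.34% of all sums), and 19 in osimertinib DTP + AZD5153 cells, 8 higher and 11 lower (8.41% and 7.79%). Between the treated groups 0 were called (0.0% of all sums), with 3 at an unadjusted p under 0.05. By kind of chain, the integrin alpha chains taken here gave only lower calls, 12 of 53 regions in osimertinib DTP cells and 17 after AZD5153. Of all annotated regions, 6.98% were called higher and 7.22% lower in osimertinib DTP cells, and 10.7% and 11.1% after AZD5153. Integrin beta chains gave calls in both directions, with 7 of 104 regions higher and 13 lower in osimertinib DTP cells and 21 higher and 10 lower after AZD5153. The 7 higher and the 10 lower were near the annotated shares, and 12 of the 21 were ITGB5 regions. Laminin alpha chains gave 1 higher and 8 lower of 43 in osimertinib DTP cells, and 3 and 13 after AZD5153. Laminin beta chains gave 1 and 4 of 30, then 1 and 5, and laminin gamma chains 0 and 2 of 15, then 0 and 4.

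**Figure D2:**
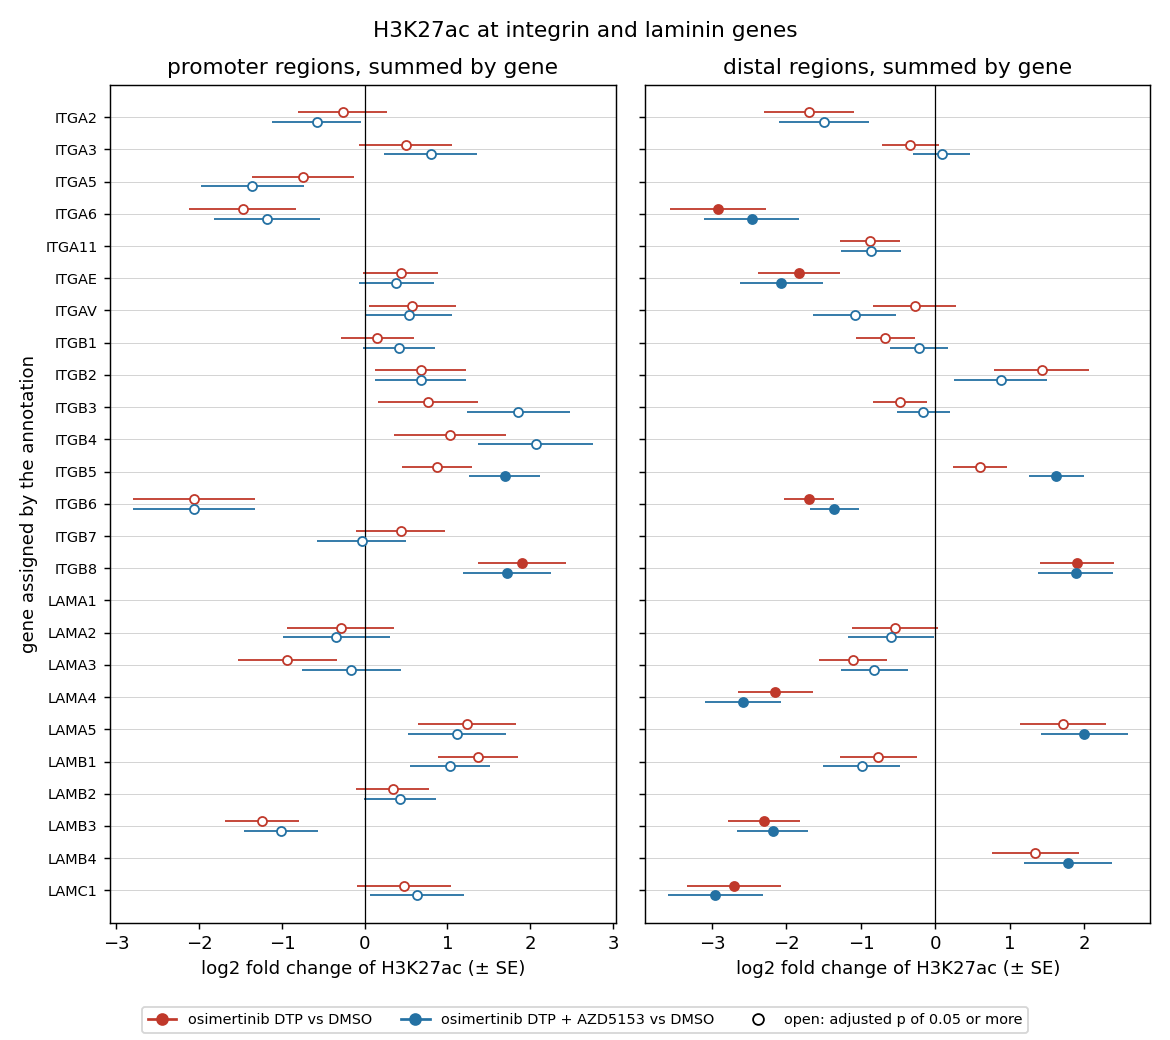
Log2 fold change against DMSO (± SE) of the H3K27ac counts summed over each gene's promoter regions (left) and distal regions (right), for osimertinib DTP (red) and osimertinib DTP + AZD5153 (blue); filled points passed an adjusted p of 0.05 in edgeR. LAMC1 lies on opposite sides of 0 in the 2 panels, but none of its promoter regions was called. ITGB6 lies below 0 and ITGB8 above 0 in both panels.

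The beta chains that pair with ITGAV moved in different directions. ITGB6, the epithelial partner that binds latent TGF-beta, had 17 distal regions, all upstream of its RefSeq start, 16 of them labelled intronic. Their summed level was 366, 496 and 385 CPM in the DMSO replicates, 134, 123 and 127 in osimertinib DTP and 163, 199 and 124 after AZD5153. Every treated library was below every DMSO library. The sum fell by 1.70 ± 0.33 on the log2 scale in osimertinib DTP cells (adjusted p = 0.00495) and fell by 1.36 ± 0.33 after AZD5153 (adjusted p = 0.0102), both from edgeR. Without DMSO replicate 2 these adjusted p were 0.0540 and 0.0828, the only library whose removal ended either call.

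All 17 distal ITGB6 regions had a negative log2 fold change in osimertinib DTP cells, from -2.61 to -0.78, and 9 were called. After AZD5153, 16 of 17 were negative and 7 were called. The region at chr2:160227612-160228113 had 38.3, 43.5 and 34.7 CPM in DMSO libraries, 11.8, 8.95 and 9.19 in osimertinib DTP libraries and 5.96, 7.61 and 4.60 after AZD5153. After AZD5153 its log2 fold change was -2.67 (adjusted p = 0.00341, edgeR), and the call held in all 9 fits that left out 1 library. Its neighbour at chr2:160229138-160229639 went from 29.2, 41.0 and 27.8 CPM in DMSO to 6.83, 5.78 and 6.89 in osimertinib DTP and 5.36, 4.73 and 1.15 after AZD5153. The highest region of the cluster, at chr2:160224341-160224842, had 32.1, 53.5 and 38.3 CPM in DMSO against 13.5, 16.8 and 16.7 in osimertinib DTP, without overlap. Its log2 fold change of -1.40 ± 0.60 did not pass (adjusted p = 0.143, edgeR), but did without replicate 3 of osimertinib DTP + AZD5153 (0.0127) and with only the libraries of both groups (0.0246). At the promoter region chr2:160199805-160200306, which covers the CG-free sequence shown above in part, levels were 7.19, 21.9 and 13.2 CPM in DMSO and 2.75, 1.65 and 5.39 in osimertinib DTP. Its log2 fold change of -2.10 ± 0.81 did not pass (adjusted p = 0.104, edgeR), although the groups did not overlap, and it did without replicate 3 of osimertinib DTP + AZD5153 (adjusted p = 0.00409).

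ITGB8, the other chain that activates latent TGF-beta with ITGAV, was the opposite case. Its 2 promoter regions summed to 21.8, 26.2 and 17.6 CPM in DMSO libraries, 49.9, 140 and 54.9 in osimertinib DTP libraries and 51.6, 44.2 and 120 after AZD5153. The promoter-rich libraries, osimertinib DTP replicate 2 and osimertinib DTP + AZD5153 replicate 3, were the highest of their groups, but all treated libraries were above DMSO. The log2 fold change was 1.90 ± 0.54 in osimertinib DTP cells (adjusted p = 0.0321, edgeR), and the adjusted p was 0.0900 with replicate numbers as a block. Without osimertinib DTP replicate 2 it was 1.32 (adjusted p = 0.118), and without DMSO replicate 1, 2 or 3 the adjusted p was 0.106, 0.103 and 0.158. After AZD5153 it was 1.71 ± 0.53 (adjusted p = 0.0378), which became 1.12 once replicate 3 of that group was left out (adjusted p = 0.0870). That call was also lost without DMSO replicate 1, 2 or 3 (adjusted p = 0.121, 0.110 and 0.174).

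The promoter region with the highest level, chr7:20330197-20330698, covers the first bases of the CG-rich ITGB8 window shown above. It had 13.6, 18.3 and 12 CPM in DMSO libraries, 29.6, 73.4 and 35.9 in osimertinib DTP libraries and 35, 32.0 and 54.4 after AZD5153. Its adjusted p in osimertinib DTP cells was 0.0497 and became 0.0664 with the replicate block, and without any 1 library other than osimertinib DTP + AZD5153 replicate 3 it was 0.0509 to 0.234. The 4 distal ITGB8 regions summed to 12, 12.2 and 7.37 CPM in DMSO libraries, 43.2, 35.4 and 39.0 in osimertinib DTP libraries and 53.3, 42.6 and 20.3 after AZD5153. These sums did not overlap between DMSO and either treated group. They were higher by a log2 fold change of 1.90 ± 0.50 (adjusted p = 0.0226) and 1.88 ± 0.50 (adjusted p = 0.0166), by edgeR. In osimertinib DTP cells the call was lost without DMSO replicate 1, 2 or 3 or osimertinib DTP replicate 1 (adjusted p = 0.0722, 0.0881, 0.155 and 0.0530). After AZD5153 it was lost without DMSO replicate 1, 2 or 3 or osimertinib DTP + AZD5153 replicate 1 (adjusted p = 0.0579, 0.0684, 0.123 and 0.0862).

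ITGB5, which with ITGAV binds vitronectin, had 29 regions, the most of any member. After AZD5153 all 29 had a positive log2 fold change and 12 were called, while in osimertinib DTP cells 25 were positive and 3 were called. Its 14 distal regions summed to 63.0, 61.4 and 46.2 CPM in DMSO libraries, 84.3, 88.3 and 85.7 in osimertinib DTP libraries and 183, 206 and 136 after AZD5153. The 3 groups did not overlap and stood in that order. Against DMSO the log2 fold change was 0.60 ± 0.36 in osimertinib DTP cells (adjusted p = 0.366) and 1.62 ± 0.37 after AZD5153 (adjusted p = 0.00662), by edgeR. Without DMSO replicate 3 the adjusted p of the latter was 0.0679, while leaving out replicate 3 of the AZD5153 group gave a log2 fold change of 1.77. The difference between the treated groups, 1.03, had an unadjusted p of 0.0122 in the edgeR fit and did not pass the adjustment.

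An internal ITGB5 promoter region, chr3:124779904-124780405, was not in any DMSO peak list and was in all 6 treated ones. It had 3.15, 0.717 and 2.29 CPM in DMSO libraries, 19.1, 40.3 and 9.69 in osimertinib DTP libraries and 23.4, 17.4 and 96.2 after AZD5153. The log2 fold changes against DMSO were 3.47 ± 0.79 (adjusted p = 0.0119) and 4.46 ± 0.82 (adjusted p = 0.00260, edgeR), the latter 3.29 without replicate 3. The first call was lost without DMSO replicate 2 or 3 or osimertinib DTP replicate 2 (adjusted p = 0.0904, 0.0626 and 0.0624), whereas the second held in all 9 fits. Further along the gene, chr3:124774538-124775039 had 4.41, 2.66 and 1.69 CPM in DMSO libraries, 12.9, 13.1 and 9.19 in osimertinib DTP libraries and 26.9, 21.9 and 26.6 after AZD5153. Here too the second comparison, at a log2 fold change of 3.10 ± 0.57 (adjusted p = 0.00252, edgeR), held in all 9 fits. The main ITGB5 promoter region, chr3:124886348-124886849, had 13.6, 16.4 and 12.5 CPM in DMSO libraries, 12.6, 56.0 and 12 in osimertinib DTP libraries and 22.2, 30.3 and 105 after AZD5153, and was not called in either comparison (adjusted p = 0.435 and 0.0668, edgeR). The latter was 0.0300 by DESeq2, 0.0437 with only the libraries of both groups, 0.0469 over annotated regions alone, and 0.0338 and 0.0382 without osimertinib DTP replicate 2 or osimertinib DTP + AZD5153 replicate 2. Of all 9 ITGB5 promoter regions, 4 were called higher after AZD5153, and their sum was 60.2, 71.7 and 58.3 CPM in DMSO libraries, 80.9, 178 and 89.7 in osimertinib DTP libraries and 137, 173 and 305 after AZD5153. The sum was higher after AZD5153 by a log2 fold change of 1.69 ± 0.43 (adjusted p = 0.0136, edgeR), and the call was lost without DMSO replicate 1, 2 or 3 (adjusted p = 0.0614, 0.0594 and 0.0797). The sum of the 6 flank regions had a log2 fold change of 1.26 ± 0.41 (adjusted p = 0.0463, edgeR), and that call was lost on removal of any 1 library except osimertinib DTP replicate 2 or osimertinib DTP + AZD5153 replicate 3.

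ITGAV itself, the common alpha chain, had 6 regions and none was called in either comparison. Its highest promoter region had 19.9, 27.6 and 20.8 CPM in DMSO libraries, 23.1, 70.4 and 15.7 in osimertinib DTP libraries and 20.5, 23.2 and 64.8 after AZD5153, and the groups overlapped. ITGB3, another ITGAV partner, had 16 regions, 2 called lower in osimertinib DTP cells and 3 higher and 1 lower after AZD5153. At its highest promoter region the 15.6, 15.5 and 72.8 CPM after AZD5153 were set against 10.2, 13.8 and 9.76 in DMSO, and the log2 fold change of 1.62 ± 0.73 (adjusted p = 0.136, edgeR) became 0.46 without replicate 3.

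**Figure D3:**
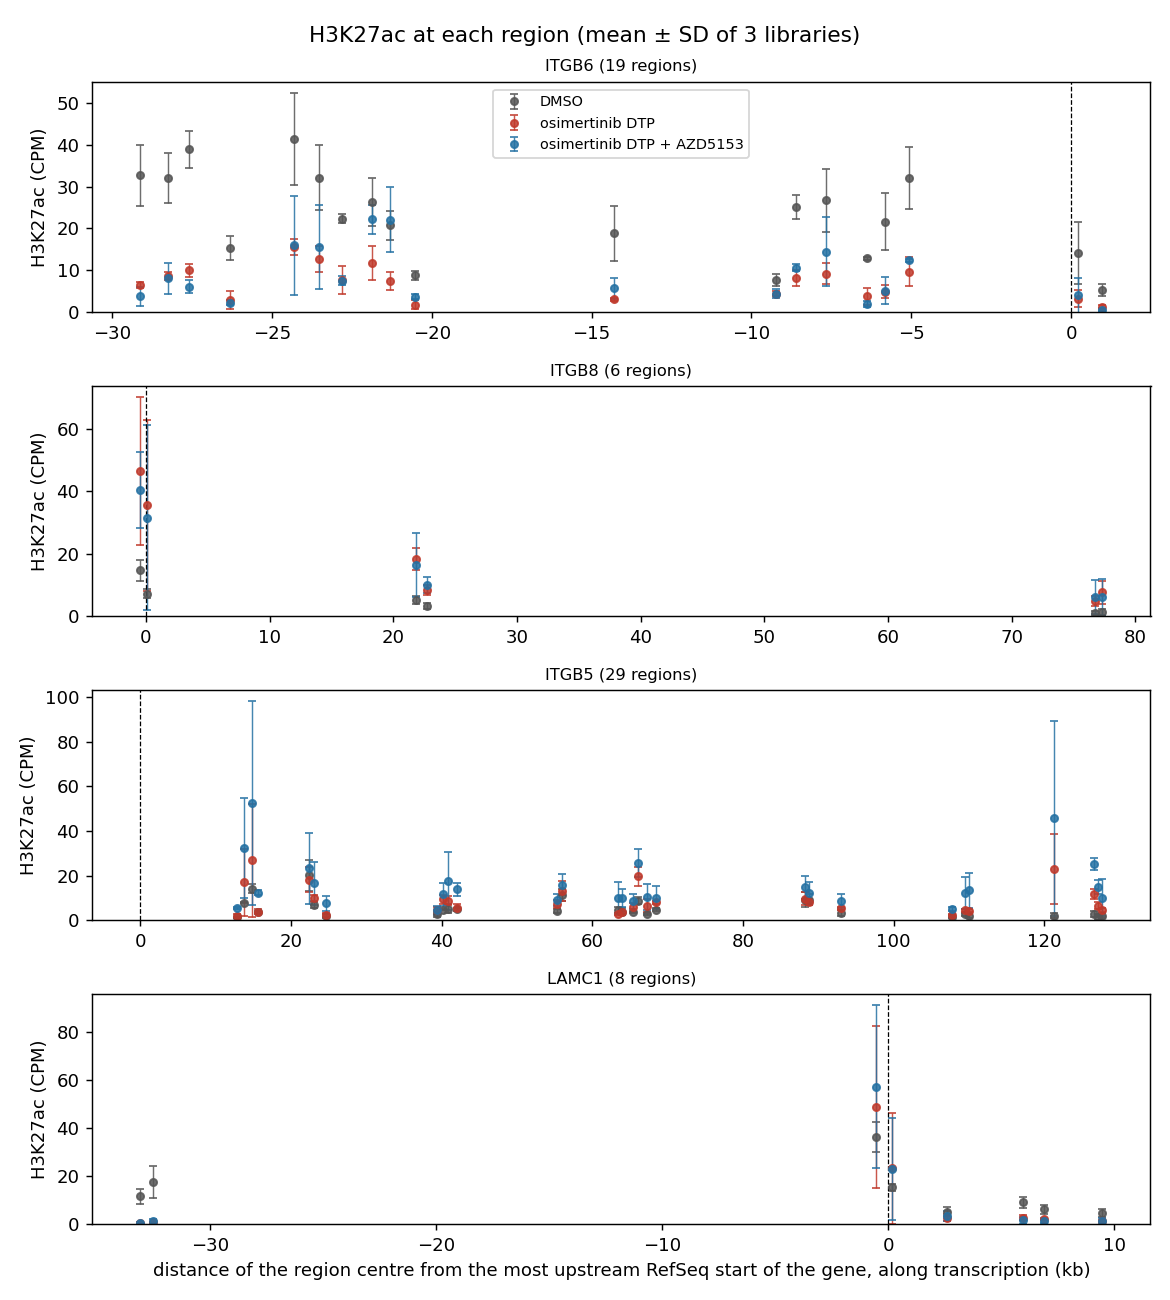
H3K27ac (CPM, mean ± SD of 3 libraries) at each region of ITGB6, ITGB8, ITGB5 and LAMC1 against the distance of its centre from the most upstream RefSeq start (dashed line), along transcription, in kb. DMSO (grey) is above both treated groups at most regions of the ITGB6 upstream cluster and at the far upstream LAMC1 pair, and below them at ITGB8, while osimertinib DTP + AZD5153 (blue) is highest across ITGB5.

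Among the laminin-binding integrins, ITGA6 fell along its first introns. Its 3 distal regions summed to 38.8, 82.9 and 50.6 CPM in DMSO libraries, 6.64, 9.50 and 6.69 in osimertinib DTP libraries and 15.2, 13.5 and 2.11 after AZD5153. No treated library reached the lowest DMSO library. The sum fell by 2.92 ± 0.65 on the log2 scale in osimertinib DTP cells (adjusted p = 0.00909) and fell by 2.47 ± 0.64 after AZD5153 (adjusted p = 0.0143), by edgeR. Without DMSO replicate 2 the adjusted p were 0.0717 and 0.0901. The intronic region chr2:172441716-172442217 had a peak in all 3 DMSO lists and in no treated list, with 10.6, 16.8 and 11.9 CPM in DMSO libraries, 1.23, 1.38 and 0.899 in osimertinib DTP libraries and 3.08, 1.96 and 0.383 after AZD5153. Its log2 fold change in osimertinib DTP cells was -3.48 (adjusted p = 0.00572, edgeR, and 0.0531 without DMSO replicate 2). The single flank region, at 4.14, 5.43 and 3.68 CPM in DMSO and at most 0.899 in any treated library, also fell (adjusted p = 0.0153 and 0.00745, edgeR over regions). Over regions the first call was lost without DMSO replicate 2 or 3 or any 1 osimertinib DTP replicate, with an adjusted p of at most 0.109, and the second without DMSO replicate 2 (0.0521), whereas in the fits over sums both calls held in all 9, but not after AZD5153 with a loess offset (adjusted p = 0.0879). At the ITGA6 promoter the region over the start, chr2:172427599-172428100, had 5.76, 12.1 and 8.36 CPM in DMSO and 1.90, 9.78 and 1.40 in osimertinib DTP, with overlap. The promoter region that followed it, chr2:172428536-172429037, fell by 2.90 ± 0.64 (adjusted p = 0.00943, edgeR) from 5.40, 5.84 and 4.08 CPM in DMSO to 0.474, 0.413 and 1.10. That call was lost without DMSO replicate 2 or osimertinib DTP replicate 1 or 2 (adjusted p = 0.0707, 0.0544 and 0.0533).

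ITGA3, whose pair with ITGB1 also binds laminin, had 6 regions and no call in either comparison (1 and 2 without replicate 3 of osimertinib DTP + AZD5153). Its highest promoter region, at 33.5, 48.5 and 39.0 CPM in DMSO and 33.9, 104 and 33.2 in osimertinib DTP, followed the promoter-rich library. ITGB4, the hemidesmosome partner of ITGA6, had 2 promoter regions, of which 1 was called higher after AZD5153 and none in osimertinib DTP cells. At the higher of them levels were 7.55, 9.63 and 8.06 CPM in DMSO and 19.9, 8.42 and 58.1 after AZD5153 (adjusted p = 0.0926, edgeR). ITGB1, the beta chain shared by most matrix receptors, had 19 regions with 1 called lower in each comparison. Its promoter had 41.8, 51.8 and 36.7 CPM in DMSO libraries, 40.4, 86.5 and 33.9 in osimertinib DTP libraries and 50.3, 54.6 and 102 after AZD5153, with a log2 fold change of 0.30 ± 0.51 in osimertinib DTP cells.

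The alpha chains for collagen and fibronectin were lower or not called. ITGA2, the collagen receptor chain, had 11 regions, all with a negative log2 fold change in both comparisons, of which 3 and 4 were called lower. Its intronic region chr5:53004284-53004785 had 2.79, 6.55 and 4.18 CPM in DMSO libraries, 0.569, 0.138 and 0.499 in osimertinib DTP libraries and 0.298, 0.577 and 0.00 after AZD5153. The log2 fold change in osimertinib DTP cells was -3.39 ± 0.81 (adjusted p = 0.0137, edgeR), and the call was lost without DMSO replicate 2 or 3 or osimertinib DTP replicate 2 or 3 (adjusted p = 0.120, 0.0617, 0.0743 and 0.0693). The highest distal ITGA2 region, chr5:53038158-53038659, had 18.1, 25.3 and 16.8 CPM in DMSO and 4.55, 5.51 and 5.39 in osimertinib DTP (adjusted p = 0.0419, edgeR, and 0.0555 with the replicate block). Without any 1 of the 6 libraries compared its adjusted p was 0.0892 to 0.196. The ITGA2 promoter, at 14.8, 30.2 and 20.7 CPM in DMSO and 9.38, 43.0 and 11 in osimertinib DTP, overlapped. ITGA5, the fibronectin receptor chain, had no distal region, and its 3 flank regions summed to 31.4, 29.9 and 35.5 CPM in DMSO libraries, 13.4, 15.6 and 16.7 in osimertinib DTP libraries and 7.75, 9.46 and 14.9 after AZD5153. All 7 ITGA5 regions were negative in both comparisons, with 0 called in osimertinib DTP cells and 2 after AZD5153. Without replicate 3 of osimertinib DTP + AZD5153 these counts were 4 and 7. ITGA11, a second collagen receptor chain, had 8 distal regions, with 0 and 2 called lower.

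Chains best known from leukocytes were also marked in this epithelial line. ITGAE, which pairs with ITGB7 and binds E-cadherin, was lower at its flank regions, 1854 and 2634 bases from its RefSeq start. Its 2 flank regions summed to 13.9, 10.9 and 10.7 CPM in DMSO libraries, 2.56, 2.2 and 1.30 in osimertinib DTP libraries and 1.3, 0.577 and 3.64 after AZD5153, and no treated library reached DMSO. The sum fell by 2.54 ± 0.62 on the log2 scale in osimertinib DTP cells (adjusted p = 0.0156) and fell by 2.74 ± 0.64 after AZD5153 (adjusted p = 0.00811), by edgeR. The first call was lost without DMSO replicate 2 or osimertinib DTP replicate 2 or 3 (adjusted p = 0.0594, 0.0613 and 0.0842), and the second held in all 9 fits. The 3 ITGAE promoter regions had log2 fold changes between 0.42 and 0.49 in osimertinib DTP cells and none was called. All 3 lie far from the RefSeq start of ITGAE, at 45867, 77531 and 80874 bases, so none covers that start. The highest of them, chr17:3723407-3723908, lies at an internal annotated start.

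ITGB2, the common beta chain of leukocyte integrins, had a distal region that rose, chr21:44881489-44881990. It had 1.62, 2.56 and 2.69 CPM in DMSO libraries, 5.69, 24.4 and 19.3 in osimertinib DTP libraries and 4.17, 24.0 and 10.2 after AZD5153, so that the treated libraries varied widely above DMSO. The log2 fold changes were 2.84 ± 0.72 (adjusted p = 0.0191) and 2.48 ± 0.71 (adjusted p = 0.0231), by edgeR. The first call was lost without any 1 of DMSO replicates 1, 2 and 3 and osimertinib DTP replicates 2 and 3 (adjusted p of 0.0688 to 0.104), and the second without any 1 of DMSO replicates 1, 2 and 3 and osimertinib DTP + AZD5153 replicate 2 (0.0855 to 0.117). The single ITGB7 region, a promoter, was at 7.01, 9.22 and 6.47 CPM in DMSO and 7.30, 8.95 and 14.5 in osimertinib DTP and was not called. Summed over the 2 leukocyte marker genes with a region, CD14 and CD79A, levels were 5.58 to 9.22 CPM in DMSO libraries, 3.00 to 4.74 in osimertinib DTP libraries and 7.27 to 12.6 after AZD5153.

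Of the laminin alpha chains, LAMA2, LAMA3 and LAMA4 gave only lower calls and LAMA1 and LAMA5 only higher ones. The annotated shares were 6.98% higher and 7.22% lower in osimertinib DTP cells, and 10.7% and 11.1% after AZD5153. LAMA3, the epithelial chain, had 15 regions, with 3 called lower in each comparison. Its intronic region chr18:23848740-23849241 had 7.91, 23.3 and 13.2 CPM in DMSO libraries, 1.71, 0.413 and 0.799 in osimertinib DTP libraries and 0.596, 0.692 and 0.575 after AZD5153. A peak was listed there in all DMSO libraries and in no treated library. The log2 fold changes were -3.88 ± 0.67 (adjusted p = 0.00374) and -4.54 ± 0.71 (adjusted p = 0.00140), by edgeR, and both calls held in all 9 fits. The region lies before the LAMA3 start whose 2 AP-1 matches are shown above and 9944 bases from the nearest annotated start. The adjoining region chr18:23849310-23849811 had 3.51, 11.3 and 4.58 CPM in DMSO libraries, 0.948, 0.689 and 0.799 in osimertinib DTP libraries and 0.0993, 0.461 and 0.383 after AZD5153. It fell in both comparisons (adjusted p = 0.0122 and 0.00212, edgeR). The first of these calls was lost without DMSO replicate 2 or osimertinib DTP replicate 2 or 3 (adjusted p = 0.145, 0.0678 and 0.0728). By contrast the highest LAMA3 promoter region had 15.5, 25.4 and 21.3 CPM in DMSO libraries, 6.16, 30.6 and 4.89 in osimertinib DTP libraries and 11.2, 7.04 and 59.0 after AZD5153, with overlap in both. In the fits over sums, the single LAMA3 flank region fell by 2.65 on the log2 scale in osimertinib DTP cells (adjusted p = 0.0123, edgeR) and fell by 2.06 after AZD5153 (adjusted p = 0.0291), and with a loess offset neither was called (adjusted p = 0.170 and 0.732). Without DMSO replicate 2 or osimertinib DTP replicate 1 or 2 the first had an adjusted p of 0.0706, 0.0609 and 0.0724, and without DMSO replicate 2 or 3 or osimertinib DTP + AZD5153 replicate 1 the second had 0.117, 0.0804 and 0.107.

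LAMA4, a chain of vascular and mesenchymal laminins, had 7 distal regions and no promoter region. They summed to 137, 212 and 132 CPM in DMSO libraries, 49.3, 28.9 and 30.0 in osimertinib DTP libraries and 38.4, 31.0 and 10.3 after AZD5153, and the groups did not overlap. The sum fell by 2.15 ± 0.50 on the log2 scale in osimertinib DTP cells (adjusted p = 0.0120) and fell by 2.58 ± 0.51 after AZD5153 (adjusted p = 0.00307), by edgeR. All 7 regions were negative in both comparisons, 5 and 7 of them called. For the region that starts at chr6:112204470 the call in osimertinib DTP cells was lost without any 1 DMSO or osimertinib DTP library (adjusted p = 0.0518 to 0.154, edgeR). The first call on the sum was lost without DMSO replicate 2 or osimertinib DTP replicate 2 or 3 (adjusted p = 0.0994, 0.0588 and 0.0625).

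LAMA5, a chain found in most basement membranes, had 11 regions, all with positive log2 fold changes in both comparisons, of which 1 and 2 were called. Among all annotated regions, 6.98% and 10.7% were called higher. The intronic region chr20:62361397-62361898 rose from 1.44, 2.97 and 3.88 CPM in DMSO to 6.92, 37.6 and 15.5 in osimertinib DTP (log2 fold change 2.85 ± 0.71, adjusted p = 0.0183, edgeR) and 9.14, 20.3 and 32.6 after AZD5153 (2.90 ± 0.71, adjusted p = 0.0111). The first call was lost without DMSO replicate 1, 2 or 3 or osimertinib DTP replicate 2 (adjusted p = 0.0879, 0.103, 0.0681 and 0.0994), the second without DMSO replicate 1 or 2 (0.0618 and 0.0639). LAMA2 had 9 regions, with 0 called in osimertinib DTP cells and 3 lower after AZD5153. Its highest promoter region, at an internal start, had 35.1, 56.0 and 42.3 CPM in DMSO libraries, 26.3, 40.1 and 41.8 in osimertinib DTP libraries and 34.7, 55.9 and 4.22 after AZD5153, where replicate 3 stood apart. LAMA1, the embryonic chain, had 1 flank region, at 0.540, 0.922 and 0.398 CPM in DMSO libraries, 1.52, 2.75 and 1.5 in osimertinib DTP libraries and 5.46, 5.19 and 5.37 after AZD5153. In the fits over sums it rose after AZD5153 by a log2 fold change of 3.08 ± 0.55 (adjusted p = 0.00150, edgeR, called in all 9 fits), while 1.60 ± 0.55 in osimertinib DTP cells did not pass (adjusted p = 0.0717, and 0.0301 without replicate 3 of osimertinib DTP + AZD5153).

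LAMB3, the beta chain of the epithelial laminin, was lower at its upstream regions. Its 5 distal regions summed to 60.4, 127 and 96.2 CPM in DMSO libraries, 20.8, 15.4 and 21.2 in osimertinib DTP libraries and 16.7, 30.0 and 15.5 after AZD5153. The sum fell by 2.30 ± 0.48 on the log2 scale in osimertinib DTP cells (adjusted p = 0.00649) and fell by 2.19 ± 0.48 after AZD5153 (adjusted p = 0.00538), by edgeR. Without DMSO replicate 2 the adjusted p were 0.0678 and 0.0533. The region chr1:209656016-209656517, upstream of the start, had 28.1, 64.8 and 49.2 CPM in DMSO libraries, 6.26, 3.03 and 6.99 in osimertinib DTP libraries and 2.98, 6.58 and 3.26 after AZD5153. Its log2 fold change after AZD5153, -3.46 ± 0.61 (adjusted p = 0.00212, edgeR), held in all 9 fits. The LAMB3 promoter, at 24.3, 52.6 and 38.0 CPM in DMSO and 12.3, 20.2 and 20.7 in osimertinib DTP, did not overlap but was not called (adjusted p = 0.191).

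Calls at the other laminin beta chains went in both directions, with lower ones at LAMB1 too. LAMB1, the common beta chain, had 13 regions with 1 higher and 1 lower in osimertinib DTP cells and 3 lower after AZD5153. Both its promoter regions lie at other annotated starts, 50933 and 49576 bases from its RefSeq start, so neither covers that start. The higher of them had 12.6, 12.9 and 10.1 CPM in DMSO and 30.1, 28.8 and 39.0 in osimertinib DTP, and was not called (adjusted p = 0.0843, edgeR), although it was without replicate 3 of osimertinib DTP + AZD5153 (0.00884) and by DESeq2 (0.0414). None of the 3 LAMB2 regions was called in either comparison, and 1 was after AZD5153 without replicate 3. The 3 LAMB4 distal regions summed to 8, 6.35 and 5.18 CPM in DMSO libraries, 17.9, 14.6 and 17.1 in osimertinib DTP libraries and 34.6, 26.2 and 6.13 after AZD5153, where replicate 3 fell within the DMSO range. The sum after AZD5153 was called at the threshold (adjusted p = 0.0498, edgeR, and 0.00137 without replicate 3).

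LAMC1, the gamma chain of most laminins, showed the largest log2 fold change of any member region in osimertinib DTP cells. The pair of regions far upstream of the start, chr1:182990083-182990584 and chr1:182990635-182991136, had peaks in all 3 DMSO lists and in no treated list. The first had 11.5, 14.8 and 8.36 CPM in DMSO libraries, 0.853, 0.551 and 0.399 in osimertinib DTP libraries and 0.695, 0.577 and 0.192 after AZD5153. The second had 16.6, 24.6 and 11.3 CPM in DMSO libraries, 0.569, 1.10 and 0.599 in osimertinib DTP libraries and 1.79, 1.61 and 0.575 after AZD5153. Every treated library was below every DMSO library at both. In osimertinib DTP cells the log2 fold changes were -4.23 ± 0.65 (adjusted p = 0.00292) and -4.54 ± 0.67 (adjusted p = 0.00273), by edgeR, and the calls held in all 9 fits in both comparisons.

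At the LAMC1 promoter, next to the CG-rich sequence shown above, the region chr1:183022625-183023126 had 33.0, 43.7 and 32.7 CPM in DMSO libraries, 30.4, 87.9 and 28.2 in osimertinib DTP libraries and 35, 40.8 and 96.4 after AZD5153. The groups overlapped, and the log2 fold change was 0.42 ± 0.56 in osimertinib DTP cells (adjusted p = 0.710, edgeR). Only the promoter-rich library of each treated group stood above all DMSO libraries.

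**Figure D4:**
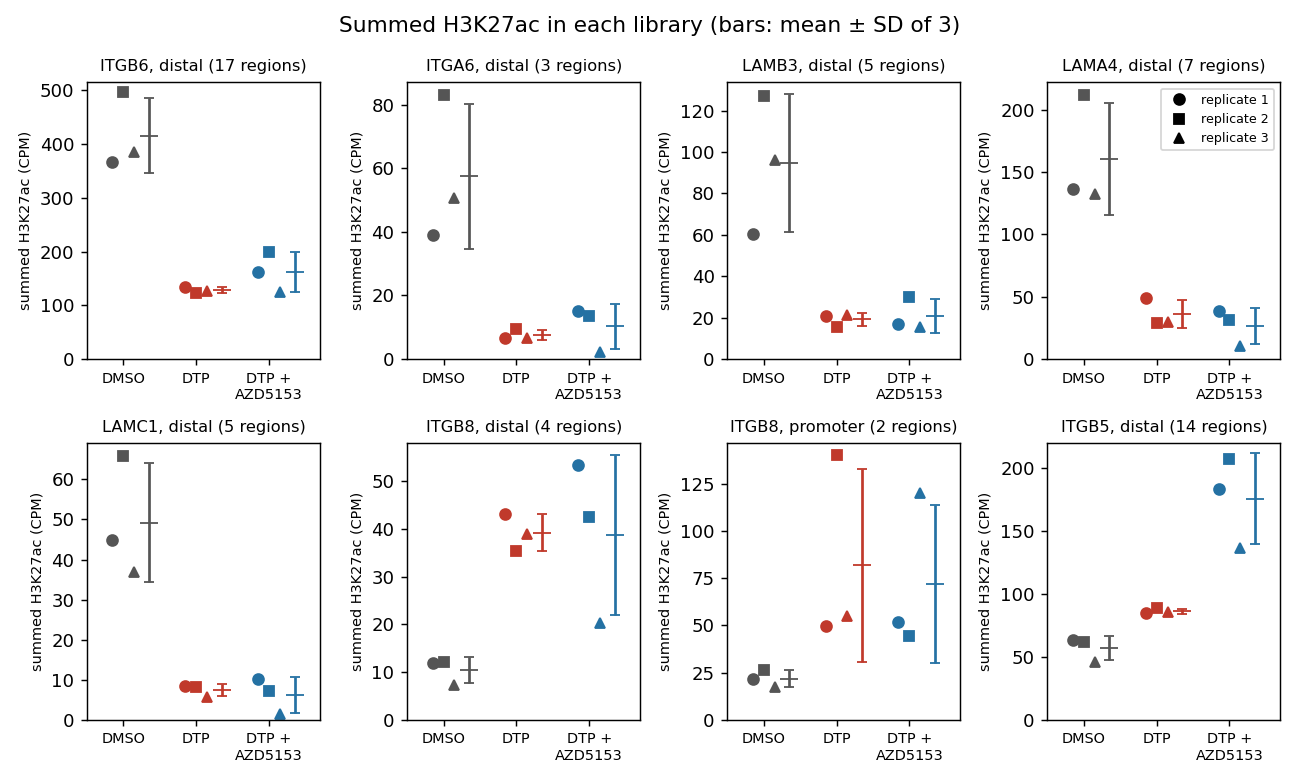
Summed H3K27ac (CPM) of 8 gene and class sums in each library, with the mean ± SD of 3 beside the points; symbols give the replicate number and the sums were chosen after their values were seen. All treated libraries lie below DMSO for ITGB6, ITGA6, LAMB3, LAMA4 and LAMC1 and above it for ITGB8 and ITGB5.

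Peaks were listed for each library. The list of osimertinib DTP replicate 3 was deposited under the name of another cell line, H1875, and was used here as its label, H1975, says. All 245 member regions overlapped a peak in at least 1 of the 9 lists by 1 base or more, and 78 did in all 9. These were 37 of 65 promoters, 12 of 41 flank regions and 29 of 139 distal regions. Of annotated promoter, flank and distal regions, 65.9, 31.0 and 25.3% had a peak in all 9. Of the distal regions, 15 had a peak in all 3 DMSO lists and in none of the 6 treated lists, and 4 had the reverse, against 8.76% and 4.84% of annotated distal regions. Member regions with a peak numbered 205 to 214 in DMSO libraries, 180 to 193 in osimertinib DTP libraries and 189, 190 and 133 in osimertinib DTP + AZD5153, the lowest being replicate 3.

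Genes that work with these chains were read from 3 lists. Of the adhesion adaptors and kinases that link integrins to actin, 20 of 21 genes had a region and gave 44 sums. In osimertinib DTP cells 1 was called lower, the distal sum of PTK2, focal adhesion kinase, which went from 91.6 ± 21.9 to 23.2 ± 6.44 CPM (SD, n = 3, log2 fold change -1.98, adjusted p = 0.00807, edgeR). After AZD5153, 6 were higher and 0 lower, among them the TLN2 promoter sum (talin, log2 fold change 2.57, adjusted p = 0.00974), both TNS3 sums (tensin, 1.05 for distal and 1.20 for flank regions, adjusted p = 0.0246 and 0.0388) and the distal PARVA sum (parvin, 1.78, adjusted p = 0.0321), by edgeR. The list median was 0.50 in osimertinib DTP cells and 0.43 after AZD5153, beside medians of 0.27 and 0.33 over all sums. Of all sums, 5.56% were called higher and 5.34% lower in osimertinib DTP cells, and 8.41% and 7.79% after AZD5153. The sums of the 3 lists were read from the fit with all 9 libraries alone, so their dependence on single libraries was not tested.

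Of the basement membrane and other matrix ligands, 12 of 14 genes had a region and gave 25 sums. In osimertinib DTP cells 1 was lower, the TNC flank sum. After AZD5153, 5 were higher and 2 lower. The distal HSPG2 sum (perlecan) had a log2 fold change of 2.14 ± 0.48 (adjusted p = 0.00606) and the NID2 flank sum (nidogen, which links laminin to collagen) -2.55 ± 0.57 (adjusted p = 0.00621), by edgeR. The list median was 0.36 in osimertinib DTP cells and 0.39 after AZD5153. Of the laminin receptors and hemidesmosome genes other than integrins, all 7 had a region and gave 18 sums, of which 3 were higher and 2 lower in osimertinib DTP cells and 1 was lower after AZD5153. All 3 higher sums were those of BCAM, a laminin receptor of the immunoglobulin family, whose flank sum went from 3.28 ± 0.812 to 35.9 ± 16.8 CPM (SD, n = 3, log2 fold change 3.44, adjusted p = 0.00530, edgeR). The lower sums were those of COL17A1, the transmembrane collagen of hemidesmosomes, whose promoter sum went from 6.31 ± 1.58 to 1.27 ± 0.233 CPM (SD, n = 3, log2 fold change -2.31, adjusted p = 0.00697, edgeR). The list median was 0.42 in osimertinib DTP cells and 0.87 after AZD5153.

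Marker lists of cell types were read beside these results. Epithelial markers, 17 sums of 6 genes, gave 0 calls in osimertinib DTP cells and 1 higher and 4 lower after AZD5153, the lower ones being CDH1 (2 sums), EPCAM and KRT19. Their summed level was 1014 to 1531 CPM in DMSO libraries, 925 to 1610 in osimertinib DTP libraries and 966 to 1501 after AZD5153. Fibroblast markers, 4 sums of 3 genes with COL3A1 and DCN without a region, gave 1 higher call in osimertinib DTP cells (PDGFRA) and 2 after AZD5153 (PDGFRA and COL1A2). Their summed level was 20.0 to 35.3 CPM in DMSO libraries, 45.9 to 115 in osimertinib DTP libraries and 87.4 to 126 after AZD5153. Endothelial markers, 5 sums of 4 genes, gave 0 calls in either comparison, at 286 to 393, 233 to 296 and 149 to 353 CPM. The part of these shifts in the integrin and laminin values was not tested, and in bulk chromatin fewer cells with a mark and less of it per cell cannot be told apart.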

How the data were processed

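H3K27ac ChIP-seq libraries of H1975 cells (3 DMSO, 3 osimertinib DTP, 3 osimertinib DTP + AZD5153) and 1 pooled input were analysed. The deposited tables hold raw read counts per region, unnormalised, and the deposited peak lists hold, per library, a fold enrichment (a ratio) and −log10 p and q values, of which only the positions were used for overlaps. The submitters' processing notes name the hg38 build, BWA 0.7.17, MACS2 2.2.6, featureCounts 2.0.0 and ChIPseeker 1.29.1 without their roles. The annotated table lists 67387 of the 169637 counted regions, with equal counts. How it was filtered is not given in the sources used here. Groups follow the labels.

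Counts of all regions were fitted in edgeR 4.0.16 (R 4.3.3): TMM, filterByExpr with a minimum count of 10, robust quasi-likelihood fit of all 9 H3K27ac libraries, Benjamini-Hochberg over 157919 tested regions, threshold 0.05. The input did not enter the fit. SE is the log2 fold change divided by the square root of F. Counts summed by gene and class were tested with the same scaling. Alternatives were DESeq2 1.42.0, a loess offset (span 0.3), scaling by library size alone, no filter, a replicate block, fits on only 2 groups or only annotated regions, a promoter limit of 3 kb, a threshold of 0.01 and each library left out. The procedure was tested on simulated data. A peak overlapped a region when they shared 1 base or more.

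Whether equal replicate numbers stand for paired samples was not established, and the main fit has no block for them. For osimertinib DTP against DMSO, deviations from the group means correlated at 0.334, 0.355 and 0.324 between same-numbered libraries. Libraries with different numbers were not compared in this way. In the other comparisons the correlations did not all pass 0.1. For osimertinib DTP + AZD5153 against DMSO they were -0.018, 0.553 and 0.362. No pair of libraries agreed within sampling noise (lowest chi-square per degree of freedom 4.17). Depth was 6263443 to 10463351 counts per library and 1870885 in the input. Values shown are CPM of the TMM-scaled library size, and intervals cover neither antibody efficiency nor a global change in the mark, and no spike-in values were used here.

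Named were each gene's promoter and distal region with the highest mean CPM. Named too were the 10 called member regions and the 10 called member sums with the smallest adjusted p per comparison, and up to 4 genes per list. Values are printed for a part of these. Left out are, among others, the ITGB2 and LAMB2 promoter regions and the ITGA11 distal region. The members and lists were chosen with earlier results of these data known, and list medians and counts are descriptions. The values of 1 member gene are not reported here, although its regions are in the counts of members.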

Additional observations from a re-analysis of the deposited data

How the results depend on the processing

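For osimertinib DTP against DMSO, 48 member regions and 11 sums were called. At a threshold of 0.01 these were 6 and 4, with only the libraries of both groups 109 and 21, and by DESeq2 89 and 19. Leaving out 1 library gave 3 to 113 regions and 1 to 21 sums. With the replicate block 46 regions, 8 higher and 38 lower, and 9 sums were called. The block ended the calls of the named ITGA2 distal region and of the ITGB8 promoter region and sum given above and changed no other call of a named region or sum in this comparison. For osimertinib DTP + AZD5153 against DMSO, 74 regions and 19 sums were called, and 26 and 7 at a threshold of 0.01. With only the libraries of both groups these were 50 (20 higher and 30 lower) and 20, and by DESeq2 103 and 22. Leaving out 1 library gave 25 to 118 regions and 6 to 21 sums. There the same-numbered libraries did not correlate in all 3 pairs. A replicate block gave 74 regions, 21 higher and 53 lower, and 16 sums, with the ITGB8 promoter sum at an adjusted p of 0.0868 (edgeR). Between the treated groups, leaving out 1 library gave 0 to 1 regions. No named region or sum that was called turned its direction under any alternative run. Each fit without 1 library had fewer samples than the main fit, and its count could be smaller or larger. The part of sample number in these counts was not tested. The depth of 6263443 to 10463351 counts limits what the regions with the lowest levels can show.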
